A study of Mus musculus with 4 samples.

Results

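The Slc25 family of mitochondrial carriers was examined in mouse embryonic fibroblasts with and without Med1, a subunit of the Mediator complex that links DNA-bound transcription factors to RNA polymerase II. Its members were the probe sets whose gene symbol begins with Slc25a and a number. There were 65 such probe sets for 33 genes, among 22626 probe sets besides controls and 12393 genes in all, and 28 of the 33 genes passed the expression filter and were tested. The Med1-/- p53-/- fibroblasts and the Med1+/+ p53-/- fibroblasts were both C57BL/6J, lacked p53, and were made from E10.0 embryos of 1 cross, between a Med1+/- p53-/- male and a Med1+/- p53+/- female. They were grown in DMEM with 10% fetal calf serum, and total RNA was hybridised to 3'-biased expression arrays, 2 per genotype. The labels do not say how many embryos or cultures stand behind the arrays of a genotype, so the p-values here reflect the spread between these arrays alone, which may be technical. Other differences between the embryos or cultures and the loss of Med1 cannot be told apart.

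Slc25 proteins are small nuclear-encoded carriers, nearly all of which sit in the inner mitochondrial membrane. Each is built from a repeated pair of membrane-spanning helices and exchanges or imports a particular set of metabolites, among them ADP and ATP, phosphate, di- and tricarboxylates, amino acids, acylcarnitines, cofactors and iron. They set what passes between the cytosol and the mitochondrial matrix, and several substrates are served by more than one closely related carrier.

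The deposited intensities were not on a common scale. Their array medians were 36.1 and 51.4 on Med1-/- arrays, against 76.2 and 107 on Med1+/+ arrays, and the values were quantile normalized. Intensities below are quantile-normalized values, and log2 changes are Med1-/- minus Med1+/+ on the log2(intensity + 1.7) scale, on which changes of dim genes come out too small. A call is an adjusted p under 0.05 by limma with Benjamini-Hochberg adjustment over all 8923 features tested. The scaling sets the zero point of these changes, so each is relative to the rest of the array. The median log2 change over all features was 0.09 with quantile normalization, 0.30 where array medians were made equal, -0.76 for deposited values without scaling, and -0.77 and -1.70 where hybridisation controls or Bacillus subtilis controls set the scale. Med1 itself had an intensity of 47.1 and 52.96 on Med1-/- arrays, against 631 and 591 on Med1+/+ arrays, a log2 change of -3.57 (SE 0.14, adjusted p = 3.15e-05, limma). Arrays of 1 genotype correlated at 0.985 in Med1-/- cells and 0.990 in Med1+/+ cells over the features tested.

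Most of the tested carriers differed between the genotypes, in both directions. Of 28 Slc25 genes, 13 were called higher and 10 lower in Med1-/- cells and 5 were not called. The same call was made for 75.3% of all features in either direction, with 39.1% called higher and 36.2% lower, so a count of 23 of 28 (82.1%) stands near what the arrays showed for genes at large. A call with at least a 2-fold change was made for 14 of the 28 genes, 9 higher and 5 lower, against 40.4% of all features. Slc25a42, counted among the 13 and the 9, passed the filter through its Med1-/- level, so its direction was given by the filter. In 26 of the 28 genes both arrays of one genotype lay beyond both of the other, as in 88.2% of all features. The median log2 change of the tested carriers was 0.22, against 0.09 for all features, and their median absolute change was 1.04, against 0.84. The 2 replicate arrays differed by a median of 0.13 in Med1-/- cells and 0.10 in Med1+/+ cells over the same genes. Relative to the median of all features the carriers' median lay 0.11 to 0.13 higher under 7 scalings, but 0.02 lower with no filter and 0.10 lower with the filter at the 60th percentile, so its sign depended on the filter, and the split of calls moved with the scaling, from 14 higher and 6 lower with array medians set equal to 0 higher and 24 lower after scaling on the Bacillus subtilis controls.

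**Figure D1:**
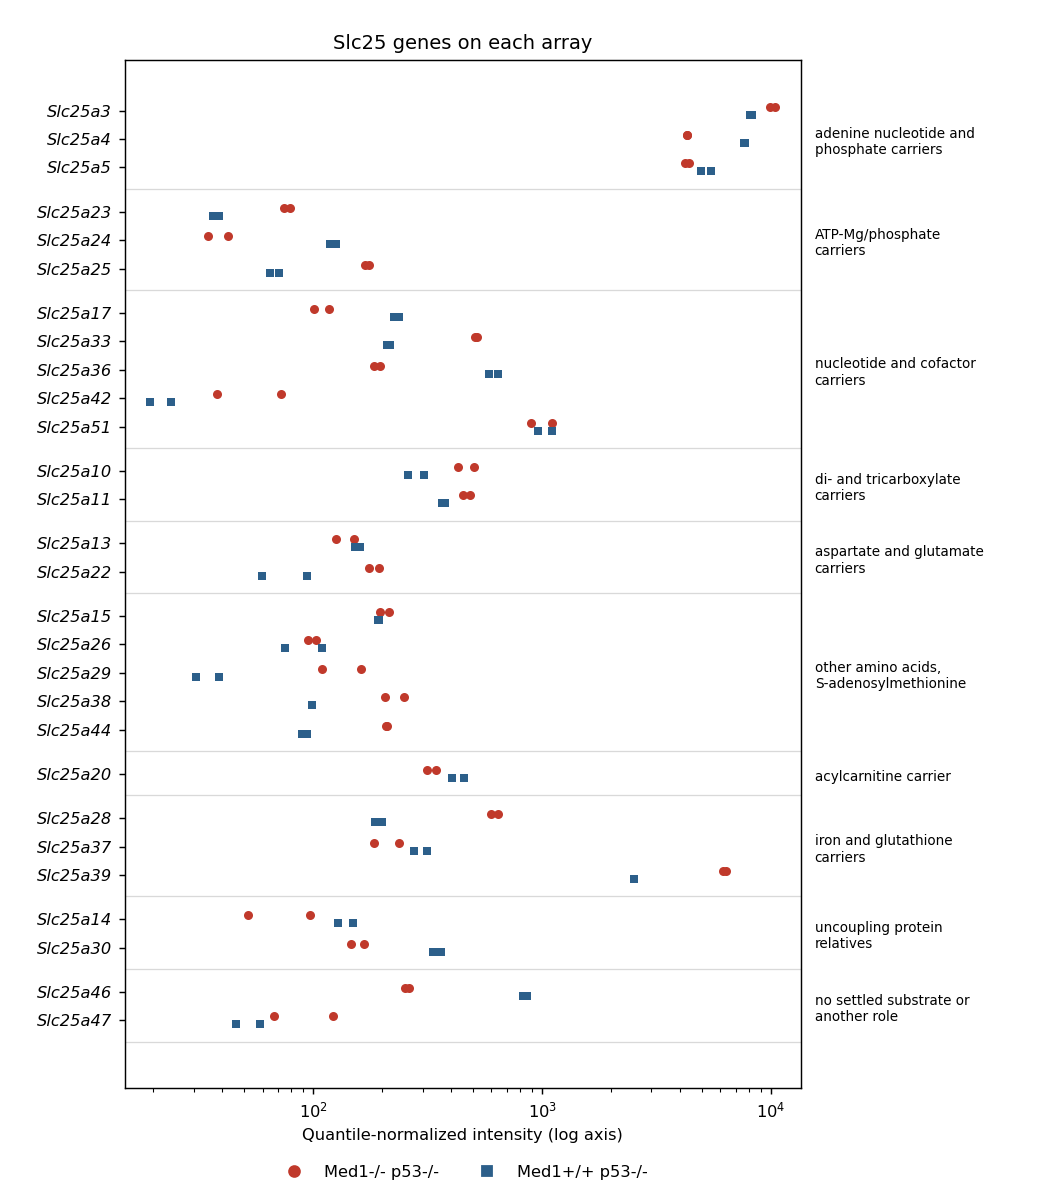
Quantile-normalized intensity (log axis) of the 28 tested Slc25 genes, grouped by what they carry, with circles for the 2 Med1-/- arrays and squares below them for the 2 Med1+/+ arrays. The symbols of the genotypes do not overlap for 26 of the 28 genes, and Slc25a51 and Slc25a26 are the ones that overlap.

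**Figure D2:**
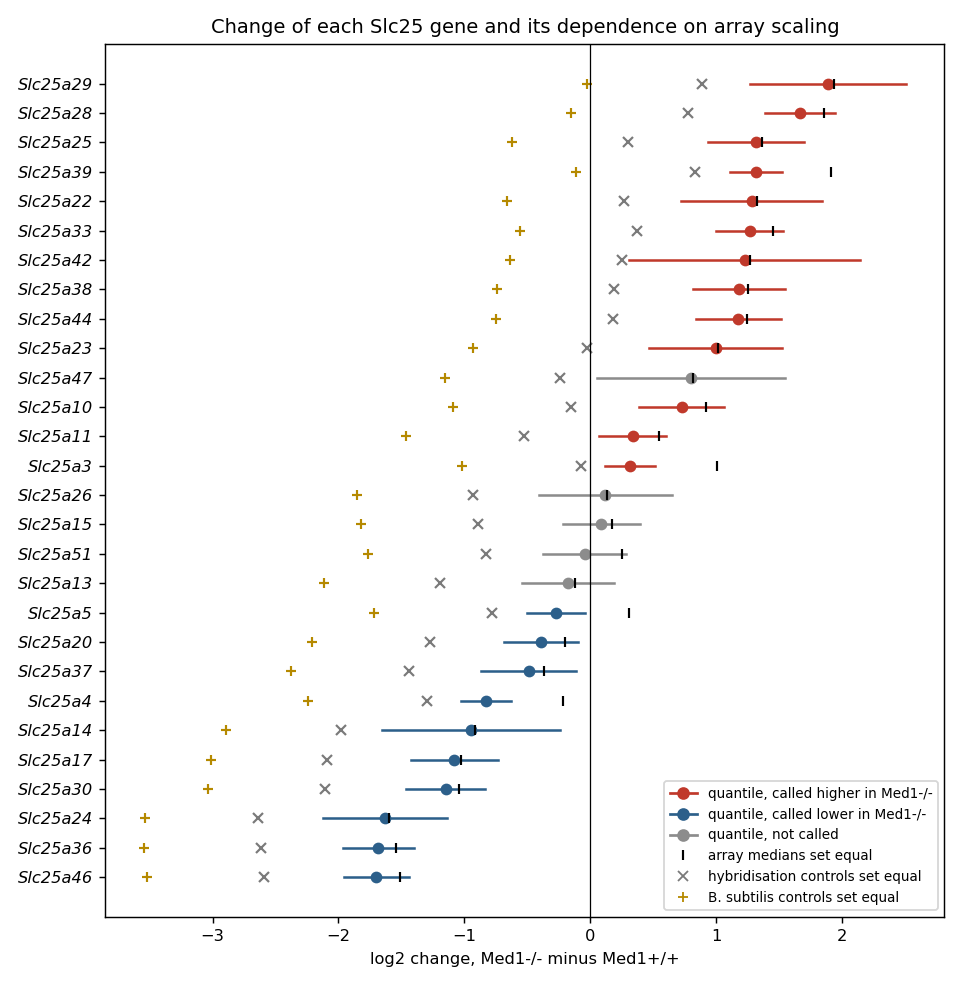
Log2 change of each tested Slc25 gene, Med1-/- minus Med1+/+, after quantile normalization (circles, with the 95% interval of limma), coloured by call, with the value under 3 other scalings. Slc25a29 is at the top (1.89) and Slc25a46 at the bottom (-1.70); with Bacillus subtilis controls as the scale every gene lies below 0.

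The carriers of adenine nucleotides and phosphate, which supply ATP synthase with its substrates and export its product, moved apart after quantile normalization. Slc25a4, an ADP/ATP exchanger typical of heart and muscle, had an intensity of 4306 and 4317 on Med1-/- arrays, against 7705 and 7629 on Med1+/+ arrays. It was 1.78-fold lower in Med1-/- cells, with no overlap between genotypes (log2 change -0.83, SE 0.08, adjusted p = 0.000154, limma). Its 3 probe sets above the filter were lower by 0.79 to 0.95 on the log2 scale. With array medians set equal the change was -0.22 and was not called (adjusted p = 0.157, limma). Slc25a5, the ADP/ATP exchanger of proliferating cells, is on chromosome X and had 4398 and 4222 on Med1-/- arrays, against 5481 and 4933 on Med1+/+ arrays. Its log2 change of -0.27 (SE 0.10, adjusted p = 0.0364, limma) turned to 0.30 with array medians set equal and to 0.12 with 75th percentiles set equal. The Slc25a5 call was also lost without replicate 1 of Med1-/- (-0.30), replicate 2 of Med1-/- (-0.24) or replicate 1 of Med1+/+ (-0.20). All 8 Slc25a5 probe sets had a lower mean in Med1-/- cells, but 3 were called when each probe set was tested by itself, and 6 of the 8 are of the _x_at kind, which can match transcripts of related genes. Slc25a3, the phosphate carrier, had 10438 and 9895 on Med1-/- arrays, against 8237 and 8076 on Med1+/+ arrays. It was 1.25-fold higher (log2 change 0.32, SE 0.08, adjusted p = 0.0118, limma), and the call was lost without replicate 1 of Med1-/- (0.28, adjusted p = 0.0880) or replicate 2 of Med1+/+ (0.30, adjusted p = 0.0595) and with cyclic loess (0.28, adjusted p = 0.0773). These 3 carriers thus gave 1 rise and 2 falls after quantile normalization, and Slc25a5 was the one whose direction turned when medians or 75th percentiles were set equal. Slc25a3 turned to -0.061 for deposited values, -0.076 on hybridisation controls and -1.02 on Bacillus subtilis controls. Under those scalings all 3 carriers lay below 0.

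The ATP-Mg/phosphate carriers, which bring adenine nucleotides into the matrix in a calcium-dependent way, split between the genotypes after quantile normalization. Slc25a25 had an intensity of 175 and 167 on Med1-/- arrays, against 64.6 and 70.9 on Med1+/+ arrays, a log2 change of 1.32 (SE 0.16, adjusted p = 0.000327, limma). Slc25a23 had 74.2 and 79.1 on Med1-/- arrays, against 38.6 and 36.4 on Med1+/+ arrays, a change of 0.999 (SE 0.22, adjusted p = 0.00538). Slc25a24 ran the other way, with 42.5 and 34.6 on Med1-/- arrays, against 126 and 119 on Med1+/+ arrays, a change of -1.63 (SE 0.21, adjusted p = 0.000414). None of the 3 overlapped between genotypes, as in 88.2% of all features. Slc25a23 turned to -0.010 for deposited values, -0.026 on hybridisation controls and -0.93 on Bacillus subtilis controls. Slc25a25 turned to -0.62 on the Bacillus subtilis controls, and Slc25a24 stayed lower under each of these scalings. With any 1 array left out the change ran from 1.25 to 1.38 for Slc25a25, from 0.95 to 1.04 for Slc25a23 and from -1.77 to -1.49 for Slc25a24.

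The nucleotide and cofactor carriers held a second such split after quantile normalization. Slc25a33 and Slc25a36 both carry pyrimidine nucleotides into mitochondria. Slc25a33 had 508 and 521 on Med1-/- arrays, against 217 and 209 on Med1+/+ arrays, 2.41-fold higher (log2 change 1.27, SE 0.11, adjusted p = 9.76e-05, limma). Slc25a36 had 195 and 184 on Med1-/- arrays, against 584 and 641 on Med1+/+ arrays, 3.21-fold lower (log2 change -1.68, SE 0.12, adjusted p = 4.91e-05, limma). The second Slc25a36 probe set above the filter was lower too, by 1.34 on the log2 scale. Slc25a17, a carrier of the peroxisomal membrane for cofactors such as coenzyme A, had 117 and 101 on Med1-/- arrays, against 236 and 226 on Med1+/+ arrays, 2.11-fold lower (adjusted p = 0.000527, limma). Slc25a42, which brings coenzyme A into mitochondria, was dim, with 72.5 and 37.8 on Med1-/- arrays, against 23.8 and 19.3 on Med1+/+ arrays. Its change of 1.23 (SE 0.38, adjusted p = 0.0234, limma) rested on few data. Its mean in Med1+/+ cells lay below the filter, so it passed through its Med1-/- level and its direction was given by the filter. Without replicate 1 of Med1-/- it was not tested at all, and it was not called without replicate 1 (1.37) or replicate 2 (1.09) of Med1+/+. Slc25a51, the mitochondrial NAD carrier, had 1104 and 896 on Med1-/- arrays, against 1099 and 955 on Med1+/+ arrays, and the genotypes overlapped. Its log2 change was -0.04 (95% interval -0.37 to 0.29). Another Slc25a51 probe set, with 557 and 530.0 on Med1-/- arrays, against 262 and 251 on Med1+/+ arrays, gave 1.08 (adjusted p = 0.000302, limma with each probe set tested), so the probe sets of this gene disagree.

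After quantile normalization the iron and glutathione carriers gave the third split, between the mitoferrins. These bring iron into the matrix for haem and iron-sulphur cluster synthesis. Slc25a28 (mitoferrin of non-erythroid tissues) had an intensity of 639 and 595 on Med1-/- arrays, against 186 and 199.6 on Med1+/+ arrays. It was 3.18-fold higher in Med1-/- cells (log2 change 1.67, SE 0.12, adjusted p = 4.88e-05, limma). Slc25a37 (mitoferrin of developing red cells) had 236 and 185 on Med1-/- arrays, against 277 and 313 on Med1+/+ arrays, a change of -0.49 (SE 0.16, adjusted p = 0.0268, limma). The Slc25a37 call was lost without replicate 2 of Med1-/- (-0.31, adjusted p = 0.116), without replicate 2 of Med1+/+ (-0.40, adjusted p = 0.133) and with array medians set equal (-0.37, adjusted p = 0.0715). Slc25a39, which is needed for the import of glutathione into mitochondria, had 6358 and 6200.2 on Med1-/- arrays, against 2515 and 2521 on Med1+/+ arrays. It was 2.49-fold higher (log2 change 1.32, SE 0.09, adjusted p = 4.36e-05, limma), and its other 2 probe sets above the filter were higher by 1.84 and 1.65.

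**Figure D3:**
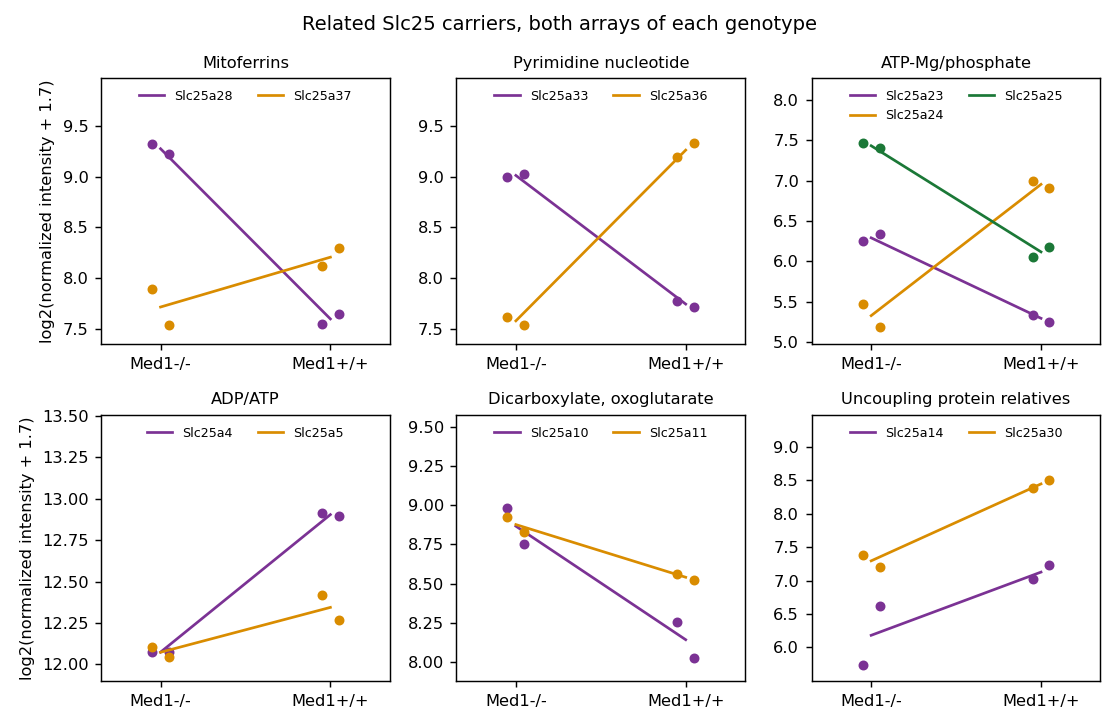
Log2(normalized intensity + 1.7) of related carriers, with Med1-/- on the left and Med1+/+ on the right of each panel, points for the 2 arrays and lines between the means. The lines of the mitoferrins, the pyrimidine nucleotide carriers, and Slc25a24 against Slc25a23 and Slc25a25 slope in opposite directions under quantile normalization, while the ADP/ATP, dicarboxylate and uncoupling protein pairs run the same way; panels have their own vertical ranges.

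In all, 8 pairs of related carriers had both members tested. In 4 of them the members were called in opposite directions (Slc25a28 and Slc25a37, Slc25a33 and Slc25a36, Slc25a23 and Slc25a24, Slc25a25 and Slc25a24), and in 4 in the same direction. Of all features 39.1% were called higher and 36.2% lower, so opposite calls are common between unrelated genes too. How often unrelated pairs split was not counted. The pairs with Slc25a23 and with Slc25a25 share Slc25a24, and the Slc25a37 call depended on the arrays kept and on the scaling. The difference between 2 log2 changes does not depend on where the scaling puts zero. Slc25a28 changed by 2.16 more than Slc25a37, Slc25a33 by 2.95 more than Slc25a36 and Slc25a23 by 2.63 more than Slc25a24, and over 7 scalings these differences ran from 2.16 to 2.22, from 2.95 to 2.99 and from 2.61 to 2.63. Slc25a24 changed by -2.95 relative to Slc25a25 (-2.96 to -2.91 over the scalings). These differences were not tested as such, and the pairs were chosen for their relatedness with earlier results of these data known.

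The promoters of members from those splits are shown because these genes moved apart although their proteins are related carriers with similar substrates. No window was listed for Slc25a37, so the Slc25a28 window has no partner to set beside it. They are RefSeq windows of build GRCm38.p6, from 250 bases before to 50 after an annotated start, 5′ to 3′, with capitals for CCAAT (or ATTGG, the same motif on the other strand) and TGACGTCA.
Slc25a28, chr19:43674832-43675131, minus strand: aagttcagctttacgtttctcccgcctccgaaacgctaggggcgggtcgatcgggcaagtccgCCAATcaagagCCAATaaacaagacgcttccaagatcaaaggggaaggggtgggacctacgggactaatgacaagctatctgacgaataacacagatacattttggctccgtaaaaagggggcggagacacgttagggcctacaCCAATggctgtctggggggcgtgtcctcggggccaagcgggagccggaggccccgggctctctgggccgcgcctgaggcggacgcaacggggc
Slc25a33, chr4:149774218-149774517, minus strand: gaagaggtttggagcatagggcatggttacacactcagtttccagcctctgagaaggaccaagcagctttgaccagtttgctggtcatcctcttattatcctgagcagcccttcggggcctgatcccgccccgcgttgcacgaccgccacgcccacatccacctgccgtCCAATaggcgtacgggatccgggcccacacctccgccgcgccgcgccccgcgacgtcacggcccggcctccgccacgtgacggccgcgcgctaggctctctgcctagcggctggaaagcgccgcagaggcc
Slc25a36, chr9:97110992-97111291, minus strand: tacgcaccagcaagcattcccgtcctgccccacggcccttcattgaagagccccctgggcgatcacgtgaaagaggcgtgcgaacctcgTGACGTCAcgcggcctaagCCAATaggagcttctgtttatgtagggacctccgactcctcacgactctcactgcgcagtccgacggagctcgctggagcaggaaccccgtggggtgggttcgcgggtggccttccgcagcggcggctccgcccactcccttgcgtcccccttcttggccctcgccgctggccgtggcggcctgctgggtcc
Slc25a24, chr3:109122899-109123198, plus strand: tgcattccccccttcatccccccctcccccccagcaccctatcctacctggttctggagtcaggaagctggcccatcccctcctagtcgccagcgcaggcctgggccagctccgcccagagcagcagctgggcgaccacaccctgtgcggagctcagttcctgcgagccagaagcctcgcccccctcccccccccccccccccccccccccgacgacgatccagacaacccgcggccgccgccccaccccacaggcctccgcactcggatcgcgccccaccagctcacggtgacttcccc
Slc25a25, chr2:32424017-32424316, minus strand: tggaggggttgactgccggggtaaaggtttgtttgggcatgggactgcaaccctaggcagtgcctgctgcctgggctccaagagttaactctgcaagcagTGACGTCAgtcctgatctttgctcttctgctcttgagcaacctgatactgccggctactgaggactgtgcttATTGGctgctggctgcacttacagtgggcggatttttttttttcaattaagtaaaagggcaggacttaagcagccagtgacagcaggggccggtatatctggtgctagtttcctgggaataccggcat
Slc25a28 was higher and its window held 3 CCAAT matches, Slc25a33 was higher and held 1, Slc25a36 was lower and held 1 CCAAT and 1 TGACGTCA, and Slc25a24 was lower and held none of the motifs searched. Slc25a25 was higher, and its window shown held 1 CCAAT and 1 TGACGTCA, so the members with TGACGTCA, Slc25a36 and Slc25a25, were called in opposite directions. The other 2 Slc25a25 windows held CCAAT and no TGACGTCA, and the 2 overlapping windows of Slc25a23, which was higher, each held 1 CCAAT; these are not printed. Windows were listed for 26 of the 33 members, 35 windows in all, and 6 motifs were searched on both strands. CCAAT, the motif of the factor NF-Y, was in 19 of the 35 windows (54.3%), against 37.4% of all 32851 promoter windows. TATAAA was in 0 of 35, against 13.6% of all windows. The cyclic AMP response motif TGACGTCA was in those 2 (1.79% of all windows), the NRF1 motif in 1 (4.60%), CCGGAAGT of ETS factors in 1 (3.89%) and TCAAGGTCA of oestrogen-related receptors in 0 (0.423%). The matches in the printed windows do not overlap each other. The GC content of members called higher and lower overlapped: it had a median of 59.8% over 12 called higher and 63.3% over 8 called lower, with ranges of 45.3% to 77.3% and 52.7% to 72.3%, against medians of 62.0% and 61.0% for all features called higher and lower.

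Carriers of dicarboxylates and 2-oxoglutarate were modestly higher after quantile normalization, and turned below 0 for deposited values without scaling and where either set of control transcripts was the scale. Slc25a10, which exchanges malate and succinate for phosphate, had an intensity of 503 and 430.05 on Med1-/- arrays, against 304 and 259 on Med1+/+ arrays, a 1.66-fold rise (log2 change 0.73, SE 0.14, adjusted p = 0.00287, limma). A second, dimmer Slc25a10 probe set gave 0.33, which was not called by itself (adjusted p = 0.229, limma with each probe set tested). Slc25a11, the oxoglutarate/malate carrier of the malate-aspartate shuttle, had 485 and 452 on Med1-/- arrays, against 375 and 366 on Med1+/+ arrays. Its change of 0.34 (SE 0.11, adjusted p = 0.0281, limma) was not called without replicate 1 of Med1-/- (0.29, adjusted p = 0.116), replicate 1 of Med1+/+ (0.36, adjusted p = 0.0899) or replicate 2 of Med1+/+ (0.32, adjusted p = 0.122). Of the aspartate and glutamate carriers, Slc25a22, which imports glutamate, had 194 and 175 on Med1-/- arrays, against 94.1 and 59.4 on Med1+/+ arrays. It was 2.43-fold higher (log2 change 1.28, SE 0.23, adjusted p = 0.00221, limma). Slc25a13 (citrin), an aspartate/glutamate exchanger of the malate-aspartate shuttle, had 151 and 126 on Med1-/- arrays, against 153 and 159.6 on Med1+/+ arrays, and its change of -0.18 (95% interval -0.54 to 0.19) was not called.

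Among carriers of other amino acids the called members were all higher after quantile normalization, 3 of the 5 tested, against 39.1% of all features. Each of the 3 turned below 0 with Bacillus subtilis controls as the scale. Slc25a29, a carrier of basic amino acids, had the largest rise of the family, with 161 and 109 on Med1-/- arrays, against 38.6 and 30.8 on Med1+/+ arrays. It was 3.71-fold higher (log2 change 1.89, SE 0.26, adjusted p = 0.000592, limma), and all 5 of its probe sets had a higher mean in Med1-/- cells, 2 of them above the filter. Slc25a38, the glycine carrier that feeds haem synthesis, had 249 and 206 on Med1-/- arrays, against 99.1 and 98.9 on Med1+/+ arrays, 2.27-fold higher (adjusted p = 0.00045, limma). Slc25a44, a carrier of branched-chain amino acids, had 209 and 208 on Med1-/- arrays, against 89.05 and 93.6 on Med1+/+ arrays, 2.26-fold higher (adjusted p = 0.000309, limma). These 3 showed no overlap between genotypes, as in 88.2% of all features. Slc25a15, the ornithine carrier of the urea cycle, had 196 and 213 on Med1-/- arrays, against 191 and 193 on Med1+/+ arrays (log2 change 0.09, 95% interval -0.22 to 0.39, not called). Slc25a26, the S-adenosylmethionine carrier, had 94.4 and 102 on Med1-/- arrays, against 74.8 and 109 on Med1+/+ arrays (0.12, interval -0.41 to 0.65, not called). A second, dimmer Slc25a26 probe set gave 0.94 (adjusted p = 0.0448, limma with each probe set tested).

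Slc25a20, the carnitine/acylcarnitine carrier that brings fatty acids into the matrix for oxidation, was slightly lower, with 342 and 313 on Med1-/- arrays, against 456 and 405 on Med1+/+ arrays. Its change of -0.39 (SE 0.12, adjusted p = 0.0237, limma) lost its call without replicate 2 of Med1-/- (-0.33, adjusted p = 0.0913), without replicate 1 of Med1+/+ (-0.31, adjusted p = 0.147), with array medians set equal (-0.20, adjusted p = 0.168) and with the mean of its probe sets (-0.28, adjusted p = 0.0940). The relatives of the uncoupling proteins were both lower after quantile normalization and under each other scaling tried. Slc25a30 had 166 and 145 on Med1-/- arrays, against 333 and 359.8 on Med1+/+ arrays, 2.22-fold lower (log2 change -1.15, SE 0.13, adjusted p = 0.000269, limma). One of its other 2 probe sets above the filter gave -1.22 and the other -0.33, which was not called by itself (adjusted p = 0.134). Slc25a14 had 51.7 and 97.0 on Med1-/- arrays, against 128 and 149 on Med1+/+ arrays. Its 2 Med1-/- arrays were far apart, and the change of -0.94 (SE 0.30, adjusted p = 0.0236, limma) was not called without replicate 2 of Med1+/+ (-0.83, adjusted p = 0.0953) and was -0.50 without replicate 1 of Med1-/- and -1.39 without replicate 2 of Med1-/-.

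Slc25a46, an outer mitochondrial membrane protein that acts in mitochondrial fission and fusion rather than transport, had the largest fall of the family. It had 251 and 263 on Med1-/- arrays, against 822 and 856 on Med1+/+ arrays, 3.25-fold lower (log2 change -1.70, SE 0.11, adjusted p = 4.23e-05, limma), and its second probe set was lower by 1.34. Slc25a47, known from liver, had 122 and 67.6 on Med1-/- arrays, against 58.3 and 45.7 on Med1+/+ arrays. It missed the call (log2 change 0.80, 95% interval 0.05 to 1.55, adjusted p = 0.0521, limma) and passed it without replicate 2 of Med1-/- (1.22, adjusted p = 0.00225) and with array medians set equal (0.81, adjusted p = 0.0493). The remaining 5 members, Slc25a2, Slc25a35, Slc25a45, Slc25a48 and Slc25a53, lay under the expression filter on their 6 probe sets, with intensities of 0.50 to 29.2 on all arrays, and were not tested.

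Where a carrier had several probe sets, they mostly ran together. Beyond the brightest probe set of each gene, 22 others in 12 genes were above the filter, and 21 of them had the sign of the brightest. Tested one by one, 13 of the 22 were called, against 71.6% of all probe sets, and 12 of those 13 in the direction of the brightest. The exception was the Slc25a51 probe set described above.

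**Figure D4:**
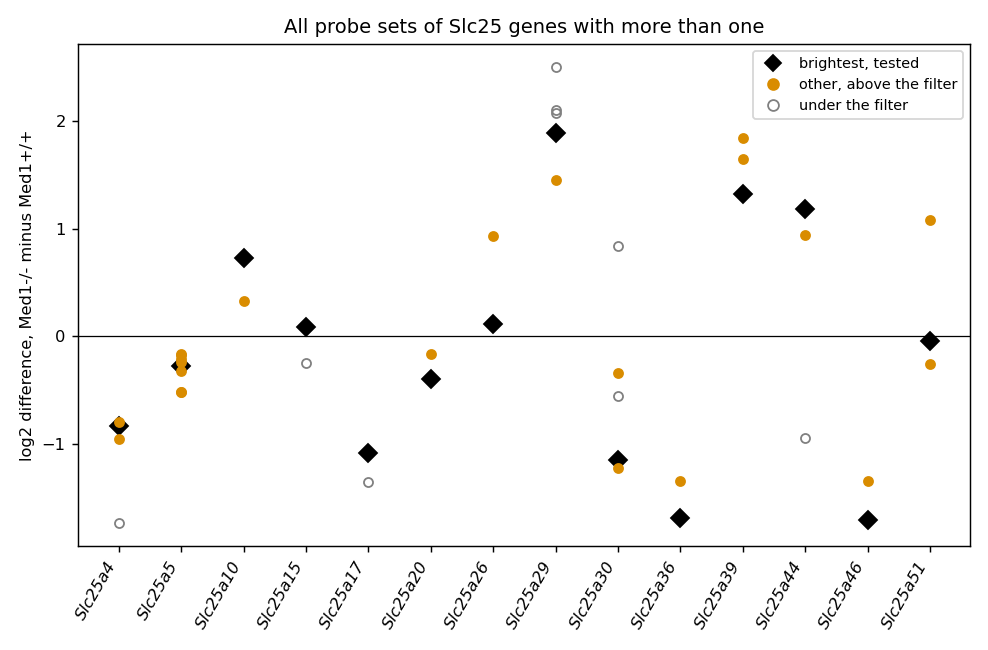
Log2 difference, Med1-/- minus Med1+/+, on every probe set of the 14 tested Slc25 genes with more than 1, with diamonds for the brightest, filled circles for others above the filter and open circles for those under it. The probe sets of Slc25a51, all above the filter, lie on both sides of 0, from -0.26 to 1.08. Those of Slc25a15, Slc25a30 and Slc25a44 do so only through probe sets under the filter. Those of Slc25a29 are all above 0 and those of Slc25a5 all below it under quantile normalization.

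Across these groups, 18 of the 23 called members were called in the same direction under quantile, median, 75th percentile and cyclic loess scaling. Of these, 15 were also called with any 1 array left out: Slc25a10, Slc25a22, Slc25a23, Slc25a25, Slc25a28, Slc25a29, Slc25a33, Slc25a38, Slc25a39 and Slc25a44, which were higher, and Slc25a17, Slc25a24, Slc25a30, Slc25a36 and Slc25a46, which were lower. Slc25a11, Slc25a14 and Slc25a42 held under the 4 scalings but not without each array, though the direction of Slc25a42 was given by the filter. Slc25a3, Slc25a4, Slc25a5, Slc25a20 and Slc25a37 changed their call among the 4 scalings. How many of all features held their call in the same way was not counted. After quantile normalization 75.3% of all features were called. The 4 scalings each set the bulk of probe sets equal. For deposited values 1 member was called higher and 10 lower, and on hybridisation controls 4 and 15. Of the 18, Slc25a10 (-0.14 and -0.15), Slc25a11 (-0.51 and -0.53) and Slc25a23 (-0.010 and -0.026) turned below 0 in both. With Bacillus subtilis controls as the scale, the members that were higher turned below 0, so "higher" here means higher than the typical gene of these arrays. In RNA from whole cultures, fewer cells of a type and less RNA per cell cannot be told apart.

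Carriers work with enzymes and import proteins on either side of the membrane, and these partner genes moved both ways as well. Mtch1 and Mtch2, family members with other names that sit in the outer membrane, changed by 1.10 (adjusted p = 0.000183, limma) and -0.52 (adjusted p = 0.00445), and Ucp1, the uncoupling protein of brown fat, was at 0.75 and 2.09 on Med1-/- arrays, against 2.05 and 0.60 on Med1+/+ arrays, near the pseudocount. Of 13 genes for protein import through the outer and inner mitochondrial membranes, 6 were higher and 4 lower. Among them were Timm22 (log2 change 0.97), the core of the carrier translocase, Timm13 (1.12), a chaperone of the intermembrane space, Tomm40 (1.37), the outer membrane pore, and Tomm70a (-0.84), a receptor for carrier precursors. Other membrane transporters had 4 higher and 4 lower of 11, including the mitochondrial pyruvate carrier gene Mpc1 (-0.70), the outer membrane channel gene Vdac3 (-0.70), Letm1 (0.70) and Abcb8 (-0.77). The background stated above, 39.1% higher and 36.2% lower of all features, applies to these counts and to those of partner and marker genes below.

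Iron-using pathways next to the mitoferrins had 9 higher and 2 lower of 13 genes (median log2 change 0.60). These were genes for haem and iron-sulphur cluster synthesis, with Tfrc, which acts in iron uptake, counted among the 2 lower. Of all features, 39.1% were called higher and 36.2% lower. Alad (1.85) and Cpox (1.06), enzymes of haem synthesis, and Nfs1 (0.91), the cysteine desulphurase of cluster assembly, were higher. Tfrc, the transferrin receptor that brings iron into the cell, had 858 and 755 on Med1-/- arrays, against 3599 and 2978 on Med1+/+ arrays, a change of -2.02 (SE 0.13, adjusted p = 4.25e-05, limma). Coenzyme A synthesis, which makes the substrate of Slc25a42, had 4 higher and 1 lower of 6, with Dcakd (2.02), Coasy (0.73) and Ppcdc (0.66) higher and the pantothenate kinase gene Pank3 (-1.44) lower. Mitochondrial nucleotide and DNA maintenance, which uses the nucleotides carried by Slc25a33 and Slc25a36, had 2 higher and 2 lower of 8: the RNA polymerase gene Polrmt (2.31) and the DNA polymerase gene Polg (1.17) were higher, and the single-strand binding protein gene Ssbp1 (-1.32) and the transcription factor gene Tfam (-1.14) lower.

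Enzymes of the malate-aspartate shuttle, the partners of Slc25a11 and Slc25a13, had 3 higher and 1 lower of 4. The counts here stand beside the same 39.1% higher and 36.2% lower of all features. The mitochondrial transaminase gene Got2 (log2 change 1.19), Mdh2 (0.47) and Got1 (0.44) were higher, and the cytosolic malate dehydrogenase gene Mdh1 (-1.66) lower. Of 5 genes of citrate export and use 2 were higher and 3 lower, with Idh1 (-2.95) and Acly (-1.42), the ATP citrate lyase gene, lower along with Idh2 (-0.76), and Me1 (0.45) higher. The carnitine shuttle and fatty acid oxidation, the pathway that Slc25a20 serves, had 5 higher and 3 lower of 9. Acads (1.33) and Cpt2 (0.998) were higher, and the medium-chain dehydrogenase gene Acadm (-1.47) and Hadhb (-0.97) lower. One-carbon enzymes had 1 higher and 1 lower of 6, the serine hydroxymethyltransferase gene Shmt2 (2.04) and the dihydrolipoamide dehydrogenase gene Dld (-1.59). Proline, ornithine and glutamate enzymes had 3 higher and 2 lower of 6, with Aldh18a1 (0.94), Asns (0.92) and Odc1 (0.61) higher and the ornithine aminotransferase gene Oat (-0.65) lower. Creatine and adenylate kinases had 1 higher, Ckb (2.01), and 2 lower, Ak4 (-1.92) and Ak3 (-0.50), of 4. Regulators of mitochondrial biogenesis had 2 higher and 3 lower of 9, with Pprc1 (1.38) and the oestrogen-related receptor gene Esrra (1.26) higher and Gabpa (-1.55) and Tfb2m (-1.25) lower.

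Markers of other cell types moved with the genotype. Of the 11 fibroblast markers the summed intensity was 53888 and 50658 on Med1-/- arrays, against 44688 and 41816 on Med1+/+ arrays, with 4 higher and 3 lower of 10 tested. Collagen gene Col1a1 was higher (log2 change 1.98), Vim was 0.06 and not called, and Pdgfra (-2.95), Prrx1 (-2.89) and Dcn (-1.99) were lower. Epithelial markers summed to 2318 and 2694 on Med1-/- arrays, against 4698 and 4832 on Med1+/+ arrays (1 higher and 4 lower of 5 tested). Krt19 was the 1 higher (log2 change 1.61) and made up most of the Med1-/- sums, with 2041 and 2460. Cdh1 (-4.50), Krt18 (-4.45), Dsp (-3.92) and Krt8 (-1.96) were lower, and Epcam lay at 2.17 to 3.07 on all arrays. Muscle markers summed to 2133 and 2271 on Med1-/- arrays, against 224 and 197 on Med1+/+ arrays (4 higher and 0 lower of 4 tested). One of the 4, Actc1, had 86.6 and 45.8 on Med1-/- arrays, against 15.7 and 13.2 on Med1+/+ arrays, and passed the filter through its Med1-/- level, so its direction was given by the filter. Myod1 and Myog, which define skeletal muscle, stayed under the filter. Fat cell, endothelial, macrophage and liver markers summed to at most 135 on every array. The part of these cell types in the carriers' changes was not tested. Xist, the RNA of the inactive X chromosome, had 364 and 201 on Med1-/- arrays, against 6771 and 5839 on Med1+/+ arrays, while the Y-linked genes Eif2s3y, Kdm5d and Uty were under the filter, at 0.23 to 11.4 on Med1-/- arrays, against 0.30 to 7.83 on Med1+/+ arrays. Of 236 features of chromosome X, 55 were called higher and 135 lower (median log2 change -0.69), against 3094 higher and 2679 lower of 7633 features on other chromosomes (median 0.14). Slc25a5 and Slc25a14 are among those of chromosome X, and leaving chromosome X out kept 13 members higher and 8 lower of 26.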

How the data were processed

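Per the labels' protocols, biotin labelling of 50 ng of total RNA used the 3' IVT Express Kit (in vitro transcription). The deposited values are linear intensities, 1 for each probe set on each array. The authors' probe summarisation, background correction and array scaling were not given in the sources used here, and the table holds no detection calls. The number of arrays, 4, limits the precision.

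The 64 control probe sets were left out. Platform symbols were brought up to date by Entrez identifier with the RefSeq table of GRCm38.p6 (20352 of 20380 probe sets with 1 symbol matched). Intensities were quantile normalized and put on the log2(intensity + 1.7) scale, 1.7 being the 10th percentile of the deposited values without controls. The 9050 probe sets whose mean fell below the 40th percentile were dropped, and the brightest probe set of each gene was tested in R 4.3.3 with limma 3.58.1 (lmFit and a trended eBayes, two-sided, 2 residual and 4.71 prior degrees of freedom), Benjamini-Hochberg adjusted over 8923 features. The procedure was tested on simulated data.

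The members, the related pairs and the partner and marker lists were chosen with earlier results of these data known. All members are named; of each partner list, up to 4 called genes with the largest change. Ucp1, Tfrc's values and the marker genes are given beside results they touch. Alternatives varied filter, scaling, pseudocount, probe sets, variance model, array weights, replicate block, arrays left out and threshold; leaving out chromosome X and testing each probe set were added after seeing the data. Figures used matplotlib 3.10.9 in Python 3.11.15.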

Additional observations from a re-analysis of the deposited data

How the results depend on the processing

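Quantile, 75th percentile and cyclic loess scaling gave similar splits of the carriers, and scaling on controls did not. Slc25 genes called higher numbered 13, against 8 with the filter at the 60th percentile (19 tested), 1 for deposited values without scaling, 4 where hybridisation controls set the scale and 0 where Bacillus subtilis controls did. Those called lower numbered 10, against 6 with array medians set equal, 24 on the Bacillus subtilis controls and 5 at 2-fold or more. Over all features, 3490 were called higher, against 265, 1177 and 84 in the same 3 scalings, and 1890 at 2-fold or more; 3232 were called lower, against 5340 and 7927 on the controls and 1715 at 2-fold or more. Of all calls 51.9% were higher, against 6.45%, 18.1% and 1.05% in those 3 scalings. Deposited values and hybridisation-control scaling had nearly the same median change over all features (-0.757 and -0.773) but different counts, with 3844 and 5340 features and 10 and 15 carriers lower; the cause was not tested. Leaving out 1 array gave 10 to 14 members higher and 7 to 9 lower.

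Directions turned as follows. In the values as deposited: Slc25a3 (-0.061), Slc25a10 (-0.14), Slc25a11 (-0.51), Slc25a15 (-0.88), Slc25a23 (-0.010), Slc25a26 (-0.91) and Slc25a47 (-0.22). On hybridisation controls: Slc25a3 (-0.076), Slc25a10 (-0.15), Slc25a11 (-0.53), Slc25a15 (-0.89), Slc25a23 (-0.026), Slc25a26 (-0.93) and Slc25a47 (-0.24). On Bacillus subtilis controls: Slc25a3 (-1.02), Slc25a10 (-1.09), Slc25a11 (-1.46), Slc25a15 (-1.82), Slc25a22 (-0.66), Slc25a23 (-0.93), Slc25a25 (-0.62), Slc25a26 (-1.85), Slc25a28 (-0.15), Slc25a29 (-0.023), Slc25a33 (-0.56), Slc25a38 (-0.74), Slc25a39 (-0.11), Slc25a42 (-0.63), Slc25a44 (-0.75) and Slc25a47 (-1.15). With medians set equal: Slc25a5 (0.30) and Slc25a51 (0.25). With 75th percentiles set equal: Slc25a5 (0.12), Slc25a15 (-0.0086), Slc25a26 (-0.053) and Slc25a51 (0.062). The mean of the probe sets turned Slc25a51 (0.26), and leaving out 1 array gave -0.19 to 0.11 for Slc25a51 and -0.15 to 0.39 for Slc25a26.

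The replicate numbers mark no shared animal or day in the labels, and replicate 1 deviations of both genotypes correlated at 0.273 over features. With the number as a replicate block, 3825 features were higher and 3500 lower, 14 members higher and 10 lower, Slc25a47 being the added call (adjusted p = 0.00405, limma). Pseudocounts of 16 and 50 and the robust fit changed no member's call. With no filter, Slc25a3, Slc25a5, Slc25a14 and Slc25a42 lost theirs. The carriers under the filter cannot be judged at their signal.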
